A study of Caenorhabditis elegans with 2 samples.

Results

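Cuticle collagen genes of *Caenorhabditis elegans* were examined for regions of UNC-62 binding near their starts. The members were all protein-coding genes of the WBcel235 annotation named col and a number (156 genes) together with 19 collagen genes named for their mutant phenotype, bli-1, bli-2, dpy-2, dpy-3, dpy-4, dpy-5, dpy-7, dpy-8, dpy-9, dpy-10, dpy-13, dpy-14, dpy-17, lon-3, rol-6, rol-8, sqt-1, sqt-2 and sqt-3. These 175 genes were set beside the other 19810 of 19985 protein-coding genes, 12 of them mitochondrial. The rule uses gene names and no measured value, although it was set with earlier results of these data known. By name, col-99 is a member too, although it encodes a transmembrane collagen rather than a cuticle component, and it had no summit in any list.

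Binding of UNC-62 was mapped by ChIP-seq, the sequencing of DNA recovered with a protein by an antibody. The single group held 2 biological replicates of whole L4 larvae, males and females pooled. The worms were of strain OP600, which carries the unc119(ed3) mutation and the integrated array wgIs600, which holds unc-62 joined to TY1, EGFP and FLAG sequences, with the tag C-terminal, and an unc119 copy. The tagged protein comes from this insertion, and unc-62 is the label given for the antibody. With a single stage, genotype and condition, no difference between conditions was measured, and in whole worms fewer epidermal cells and less binding per cell cannot be told apart.

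The cuticle is a layered extracellular matrix that the epidermis makes anew before each moult, and most of its mass is collagen. Cuticle collagens are short proteins with runs of Gly-X-Y repeats that trimerise, are cleaved and are cross-linked after secretion. Their genes are switched on in waves during each moulting cycle, some in every stage and some in a single stage such as the adult. UNC-62 is a homeodomain factor of the Meis and Homothorax family, whose members bind the core word TGACAG, and it is known in worms for roles in embryonic patterning and in yolk protein gene expression.

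Regions came from 4 deposited peak lists on build ce11. The lists of replicate 1 (18114 regions), replicate 2 (20477) and the pooled replicates (4849) are unthresholded and include background regions, and a much shorter list is thresholded by reproducibility. A gene was counted where a region's summit lay from 1000 bp upstream to 500 bp downstream of any of its transcript starts. Regions were ranked within a list by the authors' signal value, made against a control on a scale that no source used here states, with rank 1 the highest. The lists carry no read counts, so depth is unknown, and 95% Wilson intervals cover only the counting of genes.

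Fewer collagen genes than other genes had an UNC-62 summit at a start in the pooled list and in both replicates together. No collagen gene had a summit of the thresholded list in its window (interval 0 to 2.15%), against 0.505% of other protein-coding genes (100 of 19810), a share that lies inside the interval. In the pooled list 9 of 175 collagen genes had a summit (5.14%, interval 2.73 to 9.48), against 11.2% of other genes. In replicate 1 the count was 43 (24.6%, interval 18.8 to 31.5) against 30.7%, and in replicate 2 it was 50 (28.6%, interval 22.4 to 35.7) against 34.4%. Collagen genes with a summit in both replicate lists numbered 16 (9.14%, interval 5.71 to 14.3), against 14.9% of other genes. The other genes' share lay above the collagen interval in the pooled list and in both replicates together, and inside it in each single replicate. Of the 175 genes, 98 (56%) had no summit in the pooled list or in either replicate, against 49.6% of other genes.

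The layout of the genes differed too. Among genes with 1 start and no neighbour's start the shortfall was within the interval or absent, and among the rest it was larger. The part of layout in these counts was not tested. A single annotated transcript start was present in 86.9% of collagen genes and 73.6% of others, so that the windows averaged 1569 and 1794 bp. Another protein-coding gene's start lay in the window of 31 collagen genes (17.7%) and of 23.3% of other genes. For 6 of those 31 it was the start of another collagen gene. Among genes with 1 start and no other gene's start in the window, a set defined after the counts were seen, 28.2% of 124 collagen genes had a summit in replicate 1 (interval 21.1 to 36.7), against 25.3% of 11266 others. In replicate 2 the shares were 32.3% (interval 24.7 to 40.9) and 28.8%, and in both replicates 11.3% and 10.1%. In the pooled list they were 7.26% (interval 3.87 to 13.2) and 8.15%. The larger differences lay in the other 51 collagen genes, those with several starts or a neighbour's start in the window. None of these 51 had a pooled summit (interval 0 to 7), against 15.1% of the corresponding other genes. In replicate 1 the counterpart values were 15.7% (interval 8.17 to 28) against 37.9%, and in replicate 2 they were 19.6% (interval 11 to 32.5) against 41.8%.

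**Figure D1:**
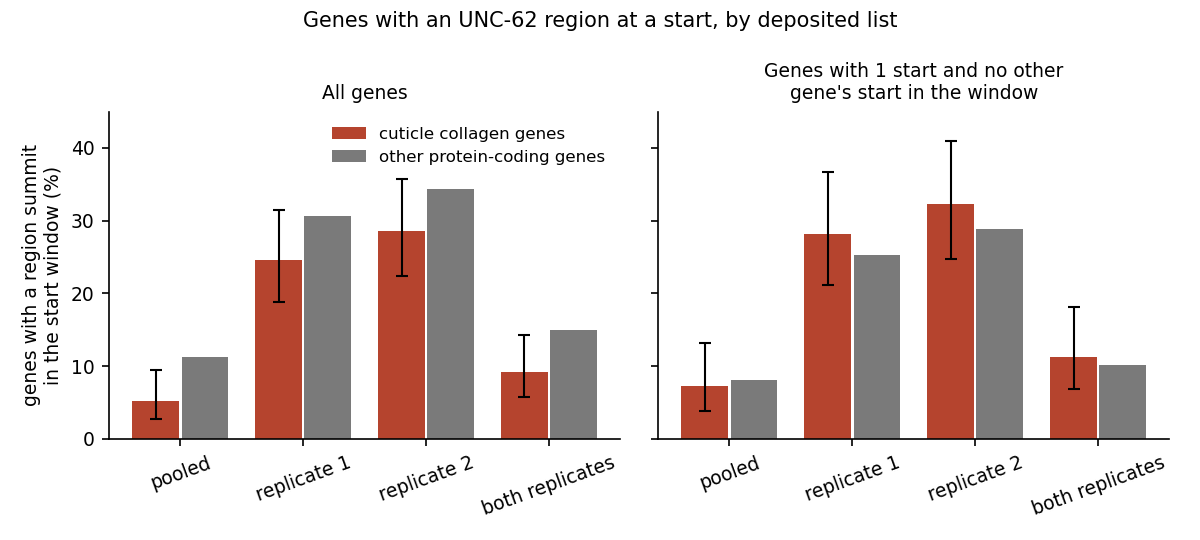
Percentage of genes with a region summit in the start window in the pooled list, each replicate list and both replicate lists, for cuticle collagen genes (red) and other protein-coding genes (grey). Error bars are 95% Wilson intervals on the collagen share. Over all genes the collagen share is the lower in every list, while among genes with 1 start and no neighbour's start it is the higher in each replicate.

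Summits at 9 collagen genes entered the pooled list, and none had a q-value of 0.05 or less. They ranked from 1303 to 4661 of 4849 with a median of 2651, and their q-values ran from 0.438 to 0.95. At other protein-coding genes the median rank was 2261, and 8.29% of 2135 such summits had a q-value of 0.05 or less. No collagen gene had a summit among the 1000 highest nuclear regions of the pooled list, where 2.86% of other genes did.

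Sequence is shown for the 5 pooled summits that the results below turn on, 100 bp to either side, read in the direction of the gene from the WBcel235 assembly of RefSeq. These are col-19, col-164, col-177 and dpy-4, the 4 that rank next after col-63, and col-74, whose window holds the most word matches. Capitals mark matches, on either strand, to TGACA, the shortened Meis word, or to the GATA-factor words AGATAA and TGATAA. The windows are chrX:422066-422266 for col-19 (plus strand), chrX:2092686-2092886 for col-164 (plus), chrX:11002046-11002246 for col-177 (minus), chrIV:14986904-14987104 for dpy-4 (minus) and chrII:5830114-5830314 for col-74 (plus).
col-19: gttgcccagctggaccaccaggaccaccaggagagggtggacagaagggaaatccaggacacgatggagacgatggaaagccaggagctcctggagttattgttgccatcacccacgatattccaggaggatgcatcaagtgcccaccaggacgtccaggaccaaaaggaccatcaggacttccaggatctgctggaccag
col-164: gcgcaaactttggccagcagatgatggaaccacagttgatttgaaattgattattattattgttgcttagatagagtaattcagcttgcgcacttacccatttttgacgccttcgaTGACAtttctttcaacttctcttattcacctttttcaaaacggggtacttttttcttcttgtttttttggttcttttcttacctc
col-177: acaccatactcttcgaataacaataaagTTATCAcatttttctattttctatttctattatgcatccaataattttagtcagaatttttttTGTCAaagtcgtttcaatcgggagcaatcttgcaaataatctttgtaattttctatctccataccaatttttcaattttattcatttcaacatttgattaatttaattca
dpy-4: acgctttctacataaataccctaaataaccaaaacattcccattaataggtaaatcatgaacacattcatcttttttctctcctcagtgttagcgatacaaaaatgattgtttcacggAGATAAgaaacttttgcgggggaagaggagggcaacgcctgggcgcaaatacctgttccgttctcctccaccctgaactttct
col-74: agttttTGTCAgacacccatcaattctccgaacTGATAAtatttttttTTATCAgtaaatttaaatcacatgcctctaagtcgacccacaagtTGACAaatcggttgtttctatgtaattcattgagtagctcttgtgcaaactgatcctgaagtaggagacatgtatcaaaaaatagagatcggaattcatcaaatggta

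The full Meis word TGACAG was in none of the 9 windows, against 8.79% of the 2117 pooled nuclear summits at other protein-coding genes. TGACA was in 3 of 9 (40.3% of the others), at col-164, col-177 and col-74. AGATAA or TGATAA was in 3 of 9 (38.3%), at col-177, dpy-4 and col-74. With 9 windows these shares are imprecise, and a missing word says only that these letters are not in the window. The median GC content of the 9 windows was 41.3%, against 36.8% at the other summits.

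The summit at col-19, which encodes an adult-specific collagen and is a standard marker of the larval-to-adult switch of the epidermis, was the best ranked of all collagen summits in replicate 1. The summit (X, 422166) lay 459 bp downstream of the start, in an exon of col-19 (X, 421707 to 422691) and within an intron of ZK1193.2. In replicate 1 it had a signal of 7.48, rank 411 of 18114 and q = 0.011. Replicate 2 had no summit in the window. Its closest lay 1440 bp downstream of the start, at rank 16167 of 20477. The pooled list held the same summit as replicate 1 at rank 1434 (signal 10.6, q = 0.486). The high rank was thus found in a single replicate. As the printed sequence shows, this window is coding sequence of high GC content (56.7%) with no match to any searched word.

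At col-164 a region was found in every unthresholded list, again stronger in replicate 1. In replicate 1 the summit lay 786 bp upstream (signal 6.67, rank 618, q = 0.0202). In replicate 2 it lay 689 bp upstream (signal 4.27, rank 8708, q = 0.732), 97 bp away. The pooled summit (X, 2092786, rank 2178) lay 683 bp upstream of the start and in an exon of lsy-2. At col-177 the order was reversed. Replicate 2 had a summit 274 bp upstream (signal 8.56, q = 0.0946) that, at rank 841 of 20477, was the best of the collagen genes there. Replicate 1 had none in the window. The pooled summit was 296 bp upstream, outside any other protein-coding gene, at rank 2484.

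The position at dpy-4 was the most alike between replicates. A mutation in this gene gives a short, dumpy body. The summit lay 220 bp upstream of the start (IV, 14987004), at the same base in replicate 1, replicate 2 and the pooled list, and in an intron of atln-2. Its rank was 2424 in replicate 1 (signal 4.65, q = 0.106), 10307 in replicate 2 (signal 3.99, q = 0.78) and 2651 in the pooled list (signal 8.95, q = 0.794). The place was therefore shared while the rank was not.

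The other 5 pooled summits were at col-63, col-68, col-74, col-85 and col-106, genes that had a summit in both replicate lists as well, though not always at the same place. The best of them by pooled rank was col-63 (I, rank 1303, signal 10.9, q = 0.438), whose summit lay 635 bp upstream and in an exon of ceh-8. Its closest pair of replicate summits stood at rank 8795 in replicate 1 and rank 1480 in replicate 2. The summits at col-68, 630 bp upstream, and at col-106, 853 bp upstream, were better ranked in replicate 1 (5492 and 4359) than in replicate 2 (15032 and 14549). That at col-85 lay in its own intron, 99 bp downstream of the start. That at col-74, 160 bp upstream, lay in an exon of gtap-1, and the replicate summits there lay 692 bp apart. At col-74 and at col-85 the regions of the replicates did not overlap. Of the 9 pooled summits, 7 were upstream of the collagen gene, and for all 9 the collagen start was the nearest protein-coding start.

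**Figure D2:**
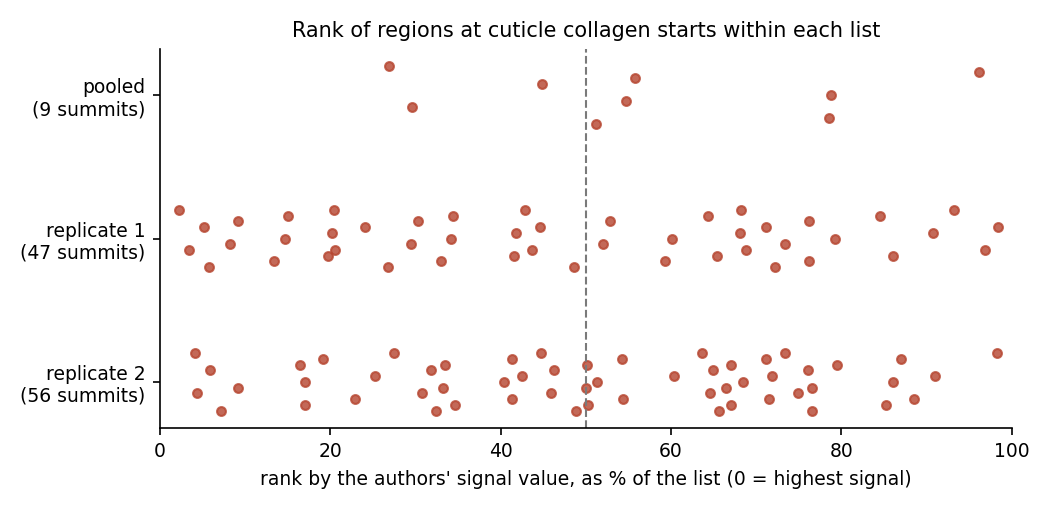
Rank of every region summit at a cuticle collagen start, as a percentage of the list's length from the highest signal (0) to the lowest (100), in the pooled and replicate lists. Points are summits, spread vertically only to part them. The dashed line marks the middle of each list. Summits are spread over both replicate lists, and no pooled summit lies among the highest 1000 of 4849.

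Within the single replicates, collagen summits were spread over most of the ranks, while the highest signals of each list, up to 39.4 in replicate 1 and 408 in replicate 2, lay elsewhere. In replicate 1 there were 47 summits at 43 genes, with signal from 2.02 to 7.48 and a median of 3.12, against 3.02 at other protein-coding genes. Their median rank was 7909 of 18114. In replicate 2 there were 56 summits at 50 genes, with signal from 2.89 to 8.56 and a median of 4, against 4.11. Their median rank was 10278 of 20477. The middle of the collagen summits lay near the middle of each list.

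A q-value of 0.05 or less was reached at 5 collagen genes in replicate 1 (2.86%, interval 1.23 to 6.51), against 3.76% of other genes, and at none in replicate 2 or in the pooled list. Besides col-19 and col-164 these were col-175, col-168 and col-95. At col-175 the summit lay in an exon, 436 bp downstream of the start (X, signal 5.97, rank 944, q = 0.0281), and the best summit of replicate 2 in the window ranked 9989 (q = 0.766). At col-168 it lay 886 bp upstream (X, signal 5.86, rank 1055, q = 0.0318). At col-95 it lay 416 bp upstream (III, signal 5.32, rank 1495, q = 0.0485). Replicate 2 had no summit in the window of either. Of the 5 genes, 4 are on the X chromosome, which holds 30 of the 175 collagen genes. The X share of other genes at this q-value was not counted, and 5 genes of 1 replicate are few. Replicate 1 listed 1521 regions of 18114 at this q-value, and replicate 2 listed 604 of 20477.

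The 16 collagen genes found in both replicate lists were compared for position. For 12 of them (75%, interval 50.5 to 89.8) a region of replicate 1 overlapped a region of replicate 2, against 68.5% of the 2948 other genes found in both. The closest pair of summits was 213 bp apart in the median, from 0 bp at dpy-4 to 1130 bp at sqt-2. Other close pairs were at col-63 (22 bp), col-9 (25 bp) and col-68 (75 bp). The ranks of these pairs differed widely. At col-9 the paired summits ranked 14363 and 11134, and at dpy-5 16881 and 13432, whereas at col-137 they ranked 4846 and 3925. Taken over all collagen genes, 6.86% had overlapping regions (interval 3.97 to 11.6), against 10.2% of other genes.

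**Figure D3:**
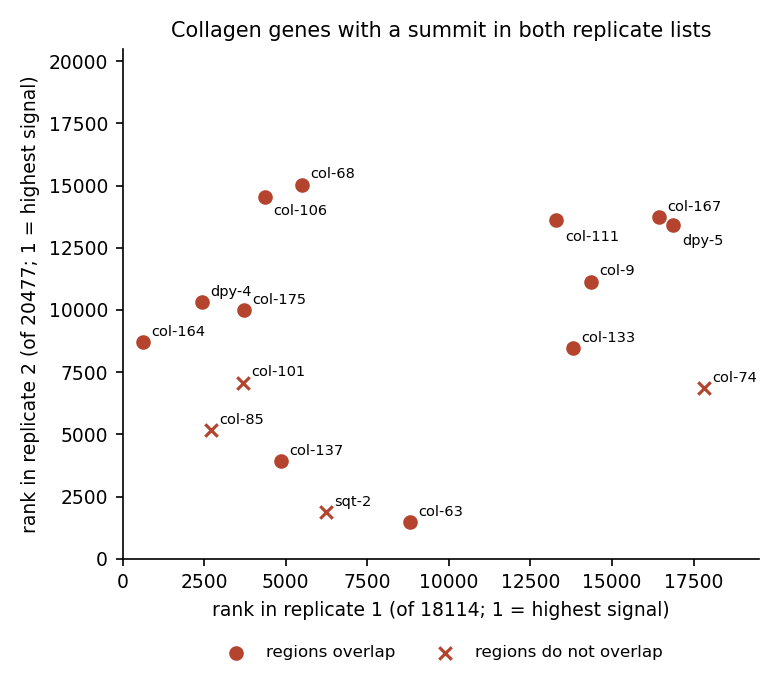
Ranks in replicate 1 (horizontal) and replicate 2 (vertical) of the closest pair of summits at each of the 16 collagen genes found in both lists. Rank 1 is the highest signal. Circles are pairs whose regions overlap and crosses pairs whose regions do not. No gene ranks among the 1000 highest in both replicates, and col-164 does so in replicate 1 alone.

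The 19 phenotype-named genes encode collagens whose loss or alteration changes body shape, blisters the cuticle or twists the animal. A summit was found at 5 in replicate 1 (26.3%), at 6 in replicate 2 (31.6%) and at 1 in the pooled list (5.26%), shares near those of all collagen genes. The shares of other genes there were 30.7%, 34.4% and 11.2%. In both replicates the count was 3 (15.8%, interval 5.52 to 37.6), against 9.14% of all collagen genes and 14.9% of other genes. The genes in both replicates were dpy-4, dpy-5 and sqt-2. At dpy-5, one of the dumpy genes, the summits lay inside the single-exon gene on chromosome I, 438 bp downstream of the start in replicate 1 (rank 16881, q = 0.852) and 267 bp downstream in replicate 2 (rank 13432, q = 0.864). At sqt-2 they were in different places. Replicate 1 had a summit in an exon, 149 bp downstream (rank 6229), and replicate 2 had its summit 981 bp upstream (rank 1879, signal 6.91, q = 0.227).

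Replicate 1 alone had a summit at bli-1, a strut collagen whose loss blisters the adult cuticle (978 bp upstream, rank 5349, within col-80 and nearer to its start), and at dpy-14 (246 bp upstream, rank 7533, in an exon of dpf-3). Replicate 2 alone had a summit at dpy-3 (835 bp upstream, rank 6628), dpy-8 (50 bp upstream, rank 15335) and lon-3 (489 bp downstream, rank 14025), a gene whose loss lengthens the body. The remaining 11 genes had no summit in any list. They were bli-2, dpy-2, dpy-7, dpy-9, dpy-10, dpy-13, dpy-17, rol-6, rol-8, sqt-1 and sqt-3. Of the 6 collagens of the annular furrows (dpy-2, dpy-3, dpy-7, dpy-8, dpy-9 and dpy-10), none had a summit in replicate 1 (interval 0 to 39%) and 2 had a summit in replicate 2 (interval 9.68 to 70%). Both intervals hold the shares of other genes, 30.7% and 34.4%.

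Some summits fell just past the window. At rol-8, a gene in which mutation makes worms roll, every unthresholded list held a summit upstream of the window, at 1230 bp in replicate 1 (rank 1679), 1460 bp in replicate 2 (rank 13301) and 1223 bp in the pooled list (rank 3971). The pooled summit nearest to sqt-2 lay 1014 bp upstream of its start (rank 3229). With the window drawn to 2000 bp upstream, the pooled count of collagen genes rose to 14 (8%), against 15.3% of other genes. With a window of 500 bp upstream and 200 bp downstream, it was 4 (2.29%), against 6.96%.

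Around the starts of other genes the pooled summits rose to a peak just upstream, and around collagen starts no such peak stood out in that list. In the 250 bp upstream of the start of other genes the pooled list held 27.6 summits per 1000 genes, against 12.4 in the bin 1000 to 1250 bp upstream. At collagen genes the values were 11.4 and 17.1, which are counts of 2 and 3 summits. Over the whole 1000 bp upstream of collagen starts, summits per kb per 1000 genes were 40 in the pooled list, against 80.9 at other genes. They were 160 against 221 in replicate 1 and 240 against 259 in replicate 2. Over the 1000 bp downstream of the start, which at a median gene length of 1221 bp is mostly collagen gene body, they were 11.4 against 48.3 in the pooled list. In replicates 1 and 2 they were 171 against 189 and 126 against 210. The 1000 to 3000 bp downstream, mostly past the end of the gene, held 48.6 against 46.3 in the pooled list and 214 against 180 in replicate 1. In replicate 2 the collagen value there, 183, was lower than that of other genes. The span from 3000 to 1000 bp upstream was lower at collagen genes as well, at 28.6 against 52 in the pooled list, 174 against 185 in replicate 1 and 160 against 207 in replicate 2.

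**Figure D4:**
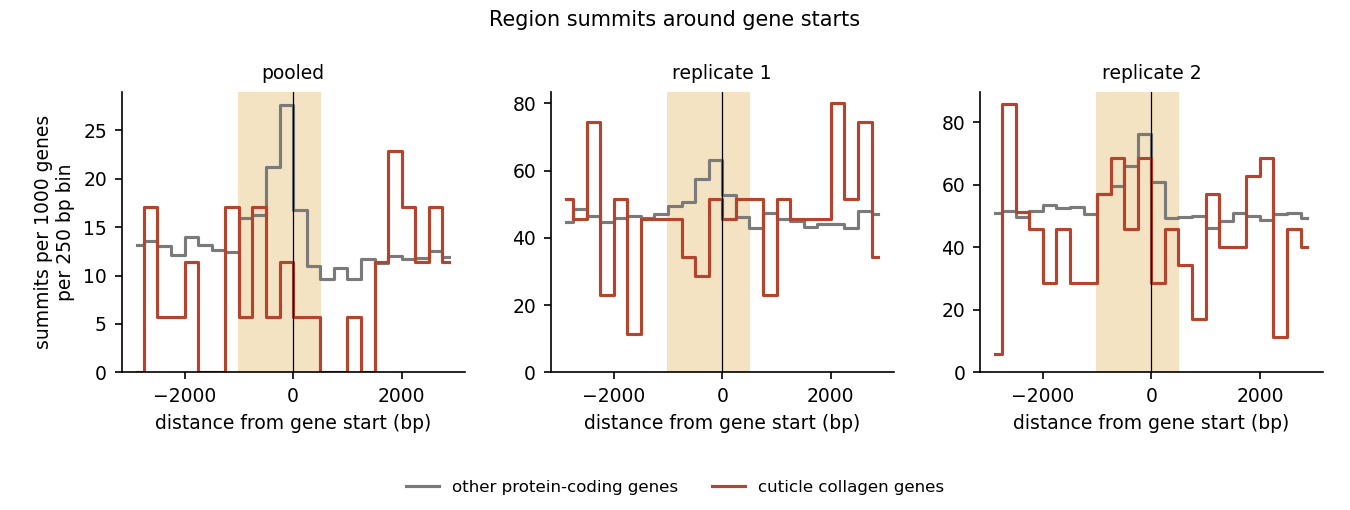
Region summits per 1000 genes in 250 bp bins from 3000 bp upstream (negative) to 3000 bp downstream of the gene start, for cuticle collagen genes (red) and other protein-coding genes (grey), in 3 lists. The shaded band is the start window. The grey line peaks just upstream of the start in each list, at 27.6, 63.1 and 76.2. The red line rests on few summits per bin, and in each list its highest bin lies elsewhere. In replicate 2 it is 68.6 just upstream of the start and 85.7 in the bin 2750 to 2500 bp upstream.

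Collagen genes are spread over all chromosomes, with 23 on I, 32 on II, 13 on III, 44 on IV, 33 on V and 30 on X. The X chromosome held the highest collagen shares in replicate 2 (36.7%, against 38% of other X genes) and in the pooled list (10%, against 13.8%). Chromosome V stood apart in replicate 1. There a single collagen gene of 33, col-144, had a summit (3.03%, interval 0.537 to 15.3), against 28.2% of other genes on V. In replicate 2, 9 of the 33 had a summit (27.3%, interval 15.1 to 44.2), against 30.7%, and col-144 was not among them. Without the X chromosome the pooled share was 4.14% of 145 collagen genes, against 10.7% of other autosomal genes.

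**Figure D5:**
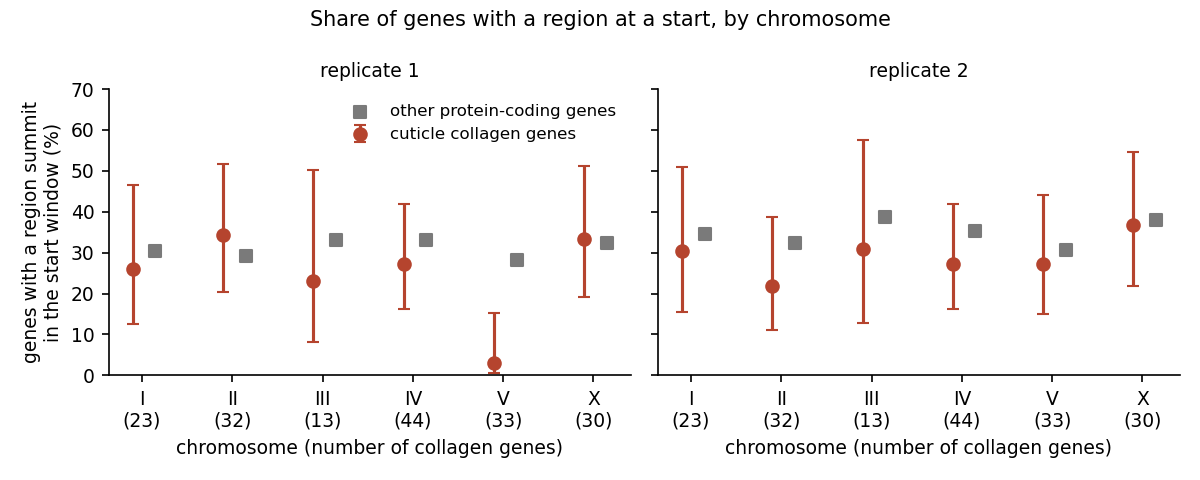
Percentage of genes with a region summit in the start window on each chromosome, in replicates 1 and 2, for cuticle collagen genes (red circles, with 95% Wilson intervals) and other protein-coding genes (grey squares). In replicate 1 the interval for collagen genes on chromosome V, 0.537 to 15.3, lies below the value of other genes there, 28.2. On the other chromosomes the grey value lies inside the interval.

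Some collagen genes lie close together, and repeated sequence in a window bears on where reads can be placed. The start of another collagen gene lay within 5000 bp of 53 members, 16 of them on V. None of these 53 had a pooled summit (interval 0 to 6.76), against 9 of the other 122 (7.38%, interval 3.93 to 13.4). In replicate 2 the shares were 15.1% (interval 7.85 to 27.1) and 34.4% (interval 26.6 to 43.2), and in replicate 1 they were 20.8% and 26.2%. Words of 31 bases found more than once in the genome made up a mean of 14% of the start windows of the 53 genes and 2.56% of those of the 122. The mean was 6.02% over all collagen genes and 5.85% over other genes. No source used here says how the authors treated reads that fit several places, and the part of repeated sequence in these counts was not tested. In genes whose window held no repeated word, the pooled shares were 7.14% of 70 collagen genes (interval 3.09 to 15.7) and 13.7% of others. In replicate 1 they were 22.9% (interval 14.6 to 34) and 34.4%, and in replicate 2 37.1% (interval 26.8 to 48.9) and 39.2%. In both replicates they were 8.57% (interval 3.99 to 17.5) and 17.7%.

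The full Meis word was somewhat more frequent at collagen genes than at others. For the shorter, the composite and the GATA-factor words the share of other genes lay inside the collagen interval. No test was made. TGACAG was present on either strand in the 1501 bp about the start in 86 of 175 collagen genes (49.1%, interval 41.8 to 56.5) and in 41.2% of other genes. TGACA was in 92.6% (interval 87.7 to 95.6) and 94.3%, and a GATA-factor word (AGATAA or TGATAA) in 94.3% (interval 89.8 to 96.9) and 91.1%. The composite TGATTGACA was in 1 collagen gene (0.571%, interval 0.101 to 3.17), against 1.66%. The median GC content of these windows was 38% at collagen genes and 35.2% at others. Among collagen genes with a pooled summit, TGACAG was in the window of 5 of 9, and among those without in 48.8% of 166.

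No thresholded peak lay close to a collagen start. The closest was 3138 bp from the start of col-40 (II), followed by 3951 bp at col-153 (V) and 4467 bp at col-171 (X). A thresholded summit lay within 5000 bp of 3 collagen genes (1.71%), against 1.82% of other nuclear protein-coding genes, and within 20000 bp of 16 (9.14%), against 6.42%. The 16 are not separate hits, since neighbouring genes share a peak. The same peak on X was nearest to col-167, col-168, col-169, col-170 and col-171, and the same peak on V to col-159 and col-160. The median distance was 195 kb for collagen genes and 218 kb for others.

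Genes that act on collagens or in the same matrix were counted in the same way. The shares over all protein-coding genes outside the collagen set were 11.2% in the pooled list, 30.7% in replicate 1, 34.4% in replicate 2 and 14.9% in both. Those genes include the ones listed here and the collagens of basement membranes. Of 16 genes for collagen modification and processing, such as prolyl hydroxylases, proteases and cross-linking enzymes, none had a pooled summit (interval 0 to 19.4%), 6 had a summit in replicate 1 (37.5%), 7 in replicate 2 (43.8%) and 4 in both (25%). Of 17 other cuticle and apical matrix genes, such as cuticlins and zona pellucida proteins, 4 had a pooled summit (23.5%, interval 9.56 to 47.3). Those also in both replicates were noah-1, an apical matrix gene (I, ranks 736 pooled, 462 in replicate 1 and 19475 in replicate 2), and cut-2, a cuticlin gene (V, ranks 3936, 12314 and 9587). Of 18 regulators of the epidermis and of moulting, 3 had a pooled summit (16.7%, interval 5.84 to 39.2), 12 a summit in replicate 1 (66.7%, interval 43.7 to 83.7) and 8 in replicate 2 (44.4%, interval 24.6 to 66.3). In both replicates 6 of these regulators had a summit (33.3%, interval 16.3 to 56.3). Among these gene lists, only the regulators' intervals in replicate 1 and in both replicates lie above the share of other genes. Their windows were longer, at a median of 2639 bp, since many have several starts.

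Of these regulators, sma-9 and elt-3 were found in all 3 lists. At sma-9, a zinc-finger cofactor of the body size pathway, the best summit of replicate 1 ranked 385 (q = 0.0117) and that of replicate 2 ranked 338 (q = 0.0193), at 429 and 864 bp upstream of the nearest of its 6 starts. Its pooled summit ranked 2441 (q = 0.753). At elt-3, an epidermal GATA factor, the ranks were 6344 in replicate 1, 3656 in replicate 2 and 2263 in the pooled list. Of 4 collagen genes listed for basement membranes and other matrices, emb-9, a type IV collagen gene, had a summit in each list, at ranks 2294, 17467 and 2235 in replicate 1, replicate 2 and the pool.

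The 2 other gene families counted, 1 smaller and 1 larger, gave higher shares than the collagen genes. Of 80 genes named rpl, rps or rpa, taken as cytosolic ribosomal protein genes, 25 had a pooled summit (31.2%, interval 22.2 to 42.1). The share of all genes outside the collagen set was 11.2%. A summit in both replicates was found at 28 (35%), against 14.9%. In replicates 1 and 2 the shares were 48.8% and 53.8%, against 30.7% and 34.4%. The set was chosen by name, and whether its rpa genes, such as rpa-2 with a summit in each list, encode ribosomal proteins was not checked. Of 269 nuclear hormone receptor genes, 42 had a pooled summit (15.6%, interval 11.8 to 20.4) and 50 a summit in both replicates (18.6%, interval 14.4 to 23.7). In replicate 1 their share was 32.3% (interval 27 to 38.1) and in replicate 2 it was 39% (interval 33.4 to 45). Except in the pooled list, the share of genes outside the collagen set lay inside the receptor genes' interval. Both pooled intervals lie above that of the collagen genes, 2.73 to 9.48. No test of these differences was made, since neighbouring and related genes are not independent.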

How the data were processed

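UNC-62 ChIP-seq was analysed from 2 replicates of 1 group. Per the file headers, which are read-me texts, the authors made the list of each replicate from its alignments and a control, the pooled list from both alignments and a control, and the thresholded list from these 3. The authors deposited a signal value and the −log10 of the q-value for each region, and the position of its summit as an offset in bp (column 10, another kind of value). No source used here names the aligner, the caller or their versions. Lists on ce10 were not used, and nothing was converted between builds.

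Summits (column 2 plus column 10, given 1-based) were assigned to protein-coding transcript starts of Ensembl release 115 on WBcel235, past whose chromosome ends no ce11 region reached. Counting was checked on placed summits. Sequence came from RefSeq's WBcel235 assembly. Repeated words were 31-base words present more than once on either strand. Python 3.11.15, pandas 2.3.3, numpy 2.4.6 and scipy 1.17.1 were used.

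The design has 1 group, so no test between groups was run, and shares are descriptions. The biological replicates are given side by side. Members and gene lists were chosen with earlier results of these data known. Named genes were those with a pooled summit, those in both replicate lists with a rank within 1000 or a q-value of 0.05 or less in either, and the phenotype-named genes. The other genes were named after their values were seen.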

Additional observations from a re-analysis of the deposited data

How the results depend on the processing

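The 4 shares of collagen genes were recomputed under 72 alternatives. In 67 the collagen share was below that of other genes. The alternatives are not independent checks. Those without 1 replicate repeat the other replicate's main share, and the nuclear set drops only the 12 mitochondrial genes. The 5 exceptions were replicate 2 among genes with 1 start (30.3% against 29.8%), the phenotype-named genes in both replicates (15.8% against 14.9%), and each replicate and both together among genes with 1 start and no other gene's start in the window. The alternatives by number of starts, by a neighbour's start, by repeated words and with nuclear genes alone were chosen after seeing the data.

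The share left its interval in 27 alternatives. A window of 500 bp upstream and 200 bp downstream gave 2.29% in the pooled list, 10.9% in replicate 1, 14.3% in replicate 2 and 2.86% in both. A window of 2000 bp upstream gave 36%, 36.6% and 17.7% in replicate 1, replicate 2 and both. A q-value of 0.05 or less left 0% in the pooled list, 2.86%, 0% and 0%. The 1000 highest nuclear regions left 0%, 1.71%, 1.14% and 0%. The 4828 highest nuclear regions of each list, the length of the shortest, gave 7.43%, 5.14% and 0% in replicate 1, replicate 2 and both. Genes with another gene's start in the window gave 0% in the pooled list, 6.45% in replicate 1 and 0% in both. Genes without repeated words gave 37.1% in replicate 2. The 19 phenotype-named genes gave 15.8% in both replicates. Except for the shorter lists and the shorter or longer windows, which hold fewer or more summits by construction, the cause was not tested. With either replicate's list alone in place of the pooled list or of both, the share was 24.6 to 28.6%, since those lists are longer or need only 1 replicate.

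No paired analysis was possible because the replicates belong to a single group. Depth is unknown, so the lists do not tell a region too weak to be listed from one that is absent.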
